A study of Mus musculus with 9 samples.

Results

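MHC class I presentation was followed through 10 genes in 9 mouse breast tumours. The genes were chosen by name: the heavy chains H2-K1 and H2-D1, the light chain B2m, the peptide transporter and loading genes Tap1, Tap2 and Tapbp, the immunoproteasome subunits Psmb8, Psmb9 and Psmb10, and the regulator Nlrc5. All 10 were among the 49585 genes of the count table and among the 19606 with enough counts to be tested. The tumours were spontaneous breast adenocarcinomas, of which 3 carry the treatment label AAV-Control and 6 that of AAV-delta-mut-p53, in which mutant p53 was to be deleted. Adeno-associated virus (AAV) was given to the tumours of both groups on days 0, 3 and 8, and collection followed at the euthanasia criteria. All 9 tumours, controls included, have the same genotype label: Rosa26LSL CAS9-P2A-EGFP/+ together with K14-Cre, on a Trp53wm-R172H/fl background. K14-Cre acts in keratin 14 epithelium, where it can switch on Cas9 and delete a floxed Trp53 allele, so host cells outside that lineage are not expected to express Cas9. The strain, its MHC haplotype, age and the interval from treatment to collection were not analysed here, being not given in the sources.

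Class I molecules show peptides from inside a cell to CD8 T cells. The proteasome, in its interferon-induced form with the subunits encoded by Psmb8, Psmb9 and Psmb10, cuts proteins into peptides. The TAP1-TAP2 transporter carries them into the endoplasmic reticulum, tapasin (Tapbp) helps load them, and a heavy chain with beta-2 microglobulin brings them to the surface. NLRC5 is the transactivator that raises transcription of heavy chain, B2m, Tap1 and Psmb9 genes, and interferon gamma is the best known inducer of the whole set.

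Library totals were 26280250 to 30953250 counts in AAV-Control and 18581545 to 24567423 in AAV-delta-mut-p53 tumours, so values are given as CPM (counts scaled to a common library size) scaled by TMM. Trp53, the targeted gene, was 39.3 to 48.6 CPM in controls and 13.1 to 41.5 CPM in the other group, with AAV-delta-mut-p53 1 and 2 the only tumours under 37.8 CPM. Epithelial markers were present in every tumour, with summed luminal markers of 1277 to 2614 CPM in controls and 255 to 4199 CPM in the other group. AAV-delta-mut-p53 2 stood apart, with the lowest luminal sum, 25443 CPM of the muscle gene Ttn (15.1 to 203 CPM elsewhere) and 432 CPM of the leukocyte gene Ptprc (34.0 to 111 CPM elsewhere). AAV-delta-mut-p53 4 and 5 share a number in their titles and differ in T1 and T2; whether they came from the same animal is not stated. No libraries were alike within counting noise, since the smallest chi-square per degree of freedom between a pair was 117.

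The members varied between tumours, and the groups overlapped for each, as they did for all but 3.06% of genes tested. From lowest to highest tumour the log2 span was 1.65 (Tap1) to 3.69 (Nlrc5), beside a median of 1.79 over 12316 genes. Of those genes 44.0% spanned less than Tap1 and 86.0% less than Nlrc5. None of the 10 genes passed edgeR's test between the groups, where 0% of all genes tested passed an FDR (false discovery rate) of 0.05. AAV-delta-mut-p53 6 had the highest RNA of 7 members, while AAV-delta-mut-p53 5 had the lowest B2m, Nlrc5, H2-D1 and Psmb10. AAV-Control 2 had the lowest Psmb8, Psmb9 and Tap2.

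**Figure D1:**
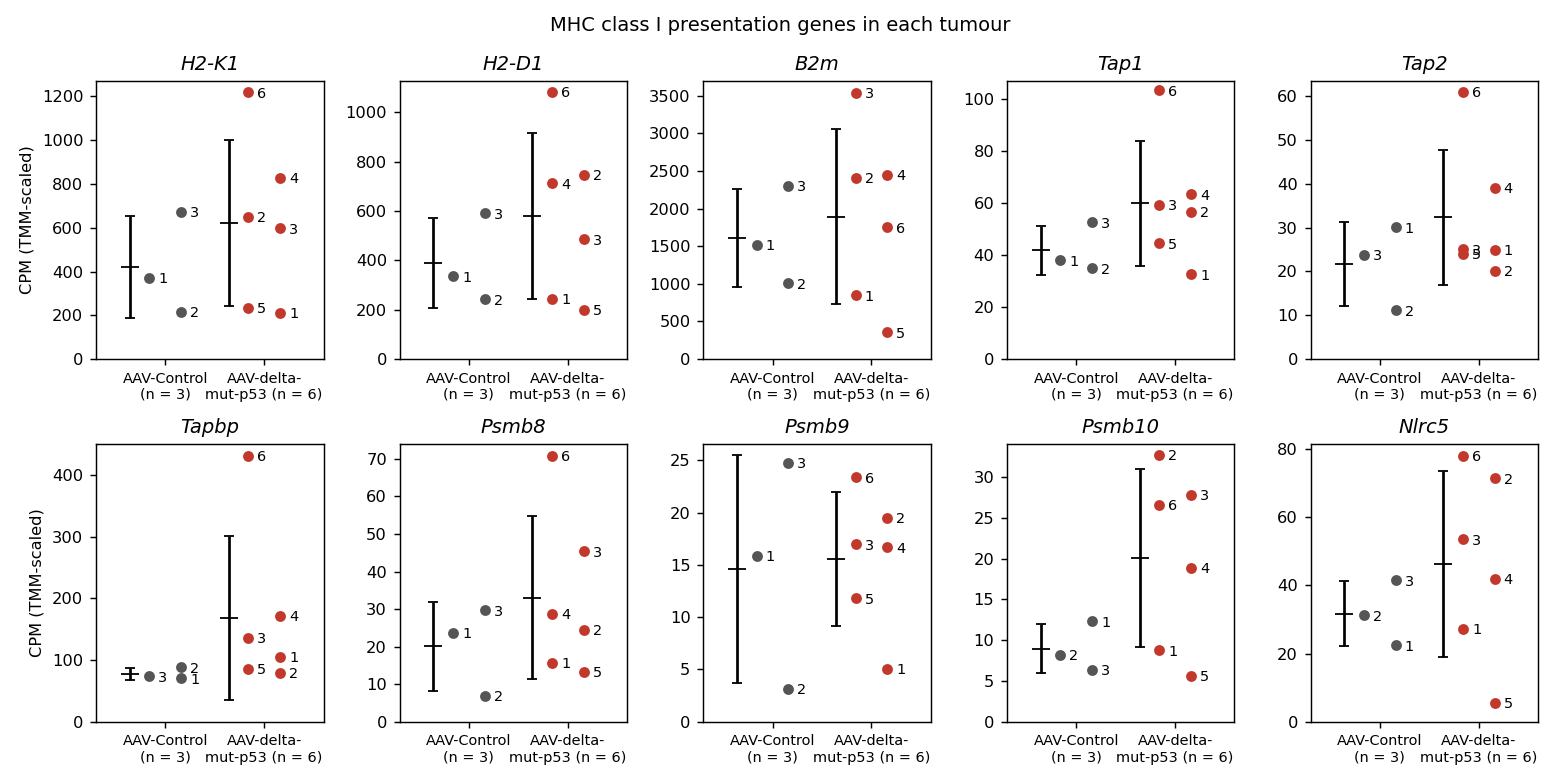
CPM of each class I gene (vertical axis from 0, scaled by TMM) in 3 AAV-Control (grey) and 6 AAV-delta-mut-p53 (red) tumours, with the replicate number beside each point and the group mean ± SD at the left. The groups overlap for every gene, and AAV-delta-mut-p53 6 is highest for H2-K1, H2-D1, Tap1, Tap2, Tapbp, Psmb8 and Nlrc5.

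The heavy chains came first. H2-K1 (ENSMUSG00000061232.15) lies on chromosome 17, 33996017 to 34000347, minus strand, on GRCm38. Its RNA was 372, 217 and 673 CPM in AAV-Control 1 to 3, with a mean of 421 ± 232 CPM (SD, n = 3). Across the AAV-delta-mut-p53 tumours the lowest was 211 CPM in number 1, the median 624 CPM and the highest 1219 CPM in number 6, a mean of 624 ± 379 CPM (SD, n = 6). The groups overlapped, with AAV-delta-mut-p53 1 just under the lowest control. The log2 fold change was 0.57 (SE 0.59, 95% confidence interval -0.74 to 1.88; FDR = 0.816 by edgeR's quasi-likelihood test). It was 1.07 without AAV-Control 3, 0.27 without AAV-Control 2 and 0.26 without AAV-delta-mut-p53 6. As the RNA came from whole tumours, fewer cells of a type and less RNA per cell cannot be told apart here or below.

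H2-D1 (chromosome 17, 35262730 to 35267499, plus strand), the other classical heavy chain, moved with H2-K1. It was 335, 242 and 591 CPM in the controls, and its lowest, median and highest values in the other group were 200 CPM (number 5), 599 CPM and 1083 CPM (number 6). Between the groups its log2 fold change was 0.57 (SE 0.55; FDR = 0.802 by edgeR), and it was 0.99, 0.33 and 0.30 without the same 3 tumours in turn. The ratio of H2-K1 to H2-D1 stayed between 0.859 and 1.23 in all 9 tumours, although each gene spanned over 5-fold. Reads of these genes can be split with close copies: 9.63% of the distinct 50-base words of H2-K1 transcripts and 12.8% of those of H2-D1 also occur in transcripts of other genes, among them each other and H2-Q genes. The sizes of both are therefore uncertain. B2m, Psmb9, Psmb10 and Nlrc5 shared 0 such words.

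B2m (chromosome 2, 122147686 to 122153083, plus strand) encodes beta-2 microglobulin, without which heavy chains do not fold and reach the surface. It was 1522, 1006 and 2306 CPM in the controls. In the other group it ran from 353 CPM in number 5 through a median of 2081 CPM to 3536 CPM in number 3. AAV-delta-mut-p53 1, at 849 CPM, and number 5 lay below every control, and numbers 2, 3 and 4 lay above every control. Controls averaged 1611 ± 654 CPM (SD, n = 3) and the other group 1892 ± 1163 CPM (SD, n = 6), a log2 fold change of 0.23 (SE 0.62, 95% interval -1.15 to 1.61; FDR = 0.938 by edgeR) that was 0.00 without AAV-Control 2 and -0.04 without AAV-delta-mut-p53 3. It was 0.57 without AAV-Control 3, 0.40 without AAV-delta-mut-p53 1 and 0.46 without number 5.

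The balance of light and heavy chain RNA differed between tumours. B2m CPM over H2-K1 CPM was 4.10, 4.64 and 3.42 in the controls in order of number, against 4.03, 3.71, 5.91, 2.96, 1.501 and 1.44 across AAV-delta-mut-p53 1 to 6. Numbers 5 and 6 were thus the only tumours under 2.9, and they reached a low ratio from opposite sides. AAV-delta-mut-p53 5 had low RNA of both, with B2m lower still, while number 6 had the highest heavy chain RNA and B2m within the control range, at 1753 CPM. A ratio across genes depends on their lengths, so only its change between tumours is read.

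The promoters of these 3 genes are shown because they share an arrangement that few others have. RefSeq's promoter table (GRCm38.p6) held 8 of the 10 genes, all but Tap2 and Nlrc5, and the 250 bases before each start were searched on both strands. In the stretches below, capitals mark the interferon regulatory factor core AANNGAAA (or its complement), TGACG, the start of a cyclic AMP response element of the kind found in the X2 box, and the CCAAT box, written ATTGG on the other strand. The H2-K1 stretch is chr17:34000349-34000467, minus strand, and the B2m stretch is chr2:122147537-122147685, plus strand, both ending just before the annotated start.
H2-K1: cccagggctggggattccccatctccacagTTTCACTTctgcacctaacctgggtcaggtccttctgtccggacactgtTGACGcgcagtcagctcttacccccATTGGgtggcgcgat
B2m: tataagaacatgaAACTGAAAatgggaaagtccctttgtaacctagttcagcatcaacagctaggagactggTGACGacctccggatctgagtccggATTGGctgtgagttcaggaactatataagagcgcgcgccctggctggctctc

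In all 3 genes TGACG and ATTGG stood in the same order with exactly 20 bases between them. The aligned stretches, at chr17:34000359-34000388 (minus strand), chr17:35262993-35263022 (plus strand) and chr2:122147609-122147638 (plus strand), share their ends. Of the 20 bases between, 13 are identical in H2-K1 and H2-D1, 3 in H2-K1 and B2m, and 2 in H2-D1 and B2m.
H2-K1: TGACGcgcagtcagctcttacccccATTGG
H2-D1: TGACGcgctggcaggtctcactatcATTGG
B2m: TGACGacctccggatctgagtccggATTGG

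That spaced pair, TGACGNNNNNNNNNNNNNNNNNNNNATTGG on either strand, occurred in 25 of 27025 promoters of that length (0.0925%), and in 3 of the 8 members, and was looked for after the separate matches had been seen. It is built from CCAAT and TGACG, which are in 6 and 5 of the 8 members and in 34.5% and 17.9% of all promoters. The bases searched for Tap1 and Psmb9 overlap on opposite strands, so their CCAAT and TGACG matches are the same sites counted for both genes. AANNGAAA was in H2-K1, H2-D1 and B2m and in 21.6% of promoters. TTCNNNGAA, the gamma-activated site, was in Psmb8 alone and in 7.18% of promoters. A match describes the letters and does not show binding. H2-M3, a nonclassical heavy chain gene, also holds the spaced pair, and at 8.41 CPM in AAV-delta-mut-p53 5 it was not low, since controls held 3.74 to 9.55 CPM, unlike B2m.

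Peptide transport and loading followed. Tap1 (chromosome 17, 34187553 to 34197225, plus strand) was the steadiest member, at 37.98, 35.0 and 52.7 CPM in the controls and 32.6 CPM (number 1), 58.1 CPM and 104 CPM (number 6) as lowest, median and highest in the other group. Between groups the log2 fold change was 0.52 (SE 0.36; FDR = 0.72 by edgeR). Tap2 (chromosome 17, 34203527 to 34216321, plus strand), the other transporter subunit, was 30.005, 11.1 and 23.8 CPM in controls, and 20.1 CPM (number 2), 24.98 CPM and 60.9 CPM (number 6) in the other group. The groups of both genes overlapped. Tap2 had a log2 fold change of 0.58 (SE 0.45; FDR = 0.745 by edgeR).

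Tapbp (chromosome 17, 33915899 to 33929292, plus strand) encodes tapasin, the bridge between the transporter and the heavy chain. Controls were close together at 70.1, 88.2 and 73.8 CPM. AAV-delta-mut-p53 1 to 6 held 105, 79.2, 136, 172, 85.8 and 431 CPM, so that 4 of the 6 lay above every control and the others within the control range. The log2 fold change of 1.12 (SE 0.55; FDR = 0.677 by edgeR) was 0.58 without number 6, which alone was 4.95 times the median of the other 8 tumours. Its exons share 904 of 3628 bases with the antisense model Gm19412 and 149 with Zbtb22, and the strand setting of the counting is not known.

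Among the immunoproteasome genes, Psmb8 and Psmb9 were lowest in AAV-Control 2 and Psmb10 in AAV-delta-mut-p53 5. Psmb8 (chromosome 17, 34197721 to 34201454, plus strand), which supplies the chymotrypsin-like site, was 23.6, 6.84 and 29.6 CPM in the controls. In the other group it ran from 13.2 CPM in number 5 through a median of 26.6 CPM to 70.8 CPM in number 6. Psmb9 (chromosome 17, 34181987 to 34187764, minus strand), which replaces the caspase-like subunit, was 15.9, 3.17 and 24.8 CPM, against 5.08 CPM (number 1), 16.8 CPM and 23.4 CPM (number 6). For Psmb9 every AAV-delta-mut-p53 tumour lay inside the control range. AAV-Control 2 was 3.89 times below the median of the other tumours for Psmb8 and 5.32 times below for Psmb9, but 1.57 times for Tap1, which starts beside Psmb9 on the opposite strand.

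Psmb10 (chromosome 8, 105935735 to 105938444, minus strand) encodes the subunit that replaces the trypsin-like one. It was 12.3, 8.17 and 6.38 CPM in the controls, and 8.77, 32.7, 27.8, 18.9, 5.66 and 26.6 CPM in AAV-delta-mut-p53 1 to 6. Numbers 2, 3, 4 and 6 lay above every control, number 1 within their range and number 5 below. The log2 fold change was 1.16 (SE 0.58, 95% interval -0.11 to 2.44; FDR = 0.677 by edgeR), and 0.53 with limma voom. Psmb8 and Psmb9 had 0.72 (SE 0.61; FDR = 0.77 by edgeR) and 0.09 (SE 0.61; FDR = 0.977 by edgeR), and the value of Psmb9 was -0.37 without AAV-Control 2, 0.70 without AAV-Control 3 and -0.06 without AAV-delta-mut-p53 6.

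Each immunoproteasome subunit was also set against the constitutive subunit it replaces, within each tumour. The log2 ratio of Psmb8 to Psmb5 averaged 0.12 ± 1.46 over controls (SD, n = 3) and 0.79 ± 0.71 over the AAV-delta-mut-p53 tumours (SD, n = 6), with exact 2-sided permutation p = 0.429 (adjusted p = 0.643 over 3 ratios). That of Psmb9 to Psmb6 was -3.76 ± 1.42 (SD, n = 3) and -3.52 ± 0.67 (SD, n = 6), with exact permutation p = 0.762 (adjusted p = 0.762). That of Psmb10 to Psmb7 was -2.39 ± 0.46 (SD, n = 3) and -1.48 ± 1.05 (SD, n = 6), with exact permutation p = 0.202 (adjusted p = 0.607), the smallest value that 84 assignments can give being 0.0119. None of the 3 ratios differed by more than the spread between tumours. The Psmb8/Psmb5 difference of 0.67 was -0.09 without AAV-Control 2, and the Psmb9/Psmb6 difference of 0.24 was -0.53 without it. In AAV-Control 2 Psmb8 counts were 0.378 of Psmb5 counts, against 0.886 to 3.02 in the other tumours. Psmb10 reached 1.05 of Psmb7 in AAV-delta-mut-p53 2, the tumour rich in leukocyte markers, against 0.134 to 0.476 elsewhere.

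**Figure D2:**
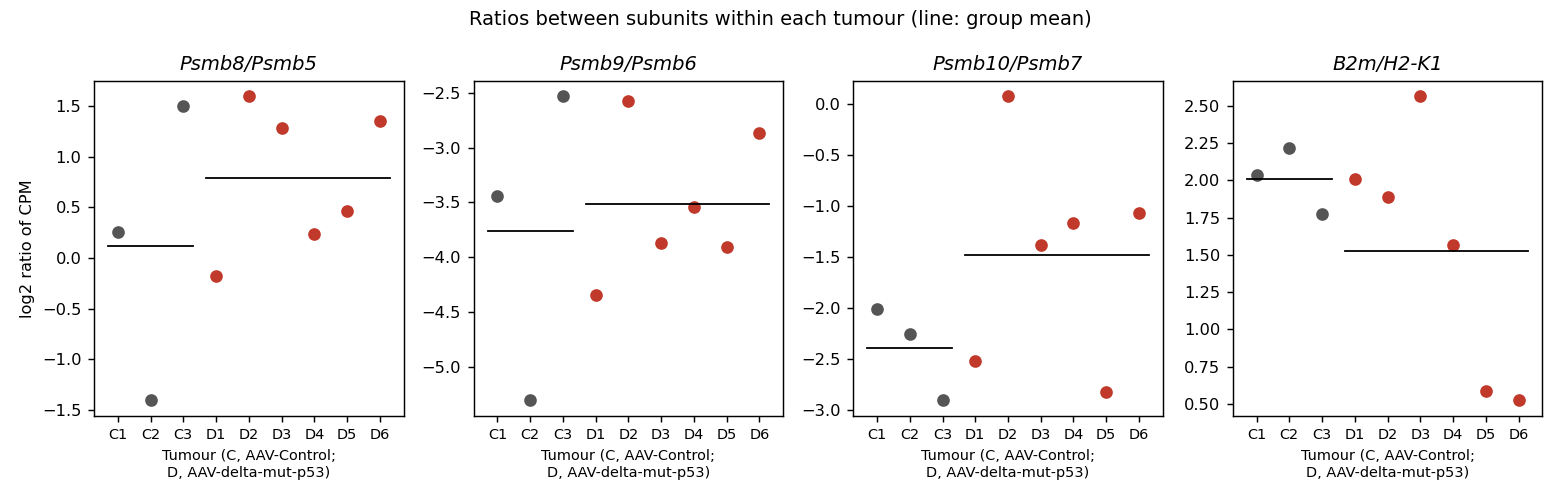
Log2 ratio of CPM between subunits (vertical axis) in AAV-Control (C, grey) and AAV-delta-mut-p53 (D, red) tumours, with lines at the group means. AAV-Control 2 is lowest for Psmb8/Psmb5 (-1.41) and Psmb9/Psmb6 (-5.31), and AAV-delta-mut-p53 5 and 6 are lowest for B2m/H2-K1 (0.59 and 0.52).

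Nlrc5 (chromosome 8, 94434356 to 94527272, plus strand) had the widest range of the 10, 13.99-fold between its extremes. It was 22.5, 31.3 and 41.6 CPM in the controls and 27.2, 71.5, 53.6, 42.0, 5.58 and 78.0 CPM in AAV-delta-mut-p53 1 to 6. Numbers 2, 3, 4 and 6 lay above every control, and number 5 lay below all others, 7.49 times under the median of the other 8 tumours. That value rests on 126 counts, where the other tumours had 605 to 1914. The log2 fold change was 0.54 (SE 0.64; FDR = 0.836 by edgeR).

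In AAV-delta-mut-p53 5 the set was not evenly low. B2m was 5.75 times under the median of the other 8 tumours, and H2-K1, H2-D1 and Psmb10 were 2.65, 2.69 and 2.75 times under it. Psmb8 was 2.01 and Psmb9 1.43 times under, and Tap1, Tap2 and Tapbp were within 1.23 times of it. Against AAV-delta-mut-p53 4, which shares its title number, number 5 was lower by 7.53-fold for Nlrc5, 6.94-fold for B2m, 3.53-fold for H2-K1 and 3.57-fold for H2-D1, and by 1.42-fold for Tap1 and 1.41-fold for Psmb9. On the log2 scale the first 4 of these differences were -2.91, -2.795, -1.82 and -1.84. The largest absolute log2 differences among the 14 other pairs of the group were 3.81, 3.32, 2.53 and 2.44. The pair of numbers 4 and 5 lay within that range, but the 14 other pairs include those of number 5 with the other tumours. As number 5 was the lowest for Nlrc5, B2m and H2-D1, its own pairs set the largest differences for those genes. The comparison therefore cannot show whether the pair of numbers 4 and 5 was unusual. The same pair differed 2.33-fold for Irf1, an activator of class I promoters. In AAV-delta-mut-p53 6 the largest departures were those of Tapbp, at 4.95 times the median of the others, and Psmb8, at 2.95 times, while B2m was at 0.916 times.

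Per kilobase of exon the order of levels was partly fixed. B2m was the highest of the 10 in all 9 tumours, at 410 to 4112 CPM per kb, and H2-K1 and H2-D1 took the next places, at 71.7 to 415 and 77.5 to 420 CPM per kb. The 2 heavy chains changed places between tumours. Tapbp was always the fourth, at 19.3 to 119 CPM per kb. Psmb10, Tap1, Psmb8, Tap2, Nlrc5 and Psmb9, with medians of 7.21, 9.62, 7.23, 6.60, 4.89 and 4.56 CPM per kb, took the remaining places. Tap1 lay above Psmb9 and Nlrc5, and Psmb8 above Psmb9, in all 9 tumours, and the other pairs among these genes exchanged places from tumour to tumour.

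**Figure D3:**
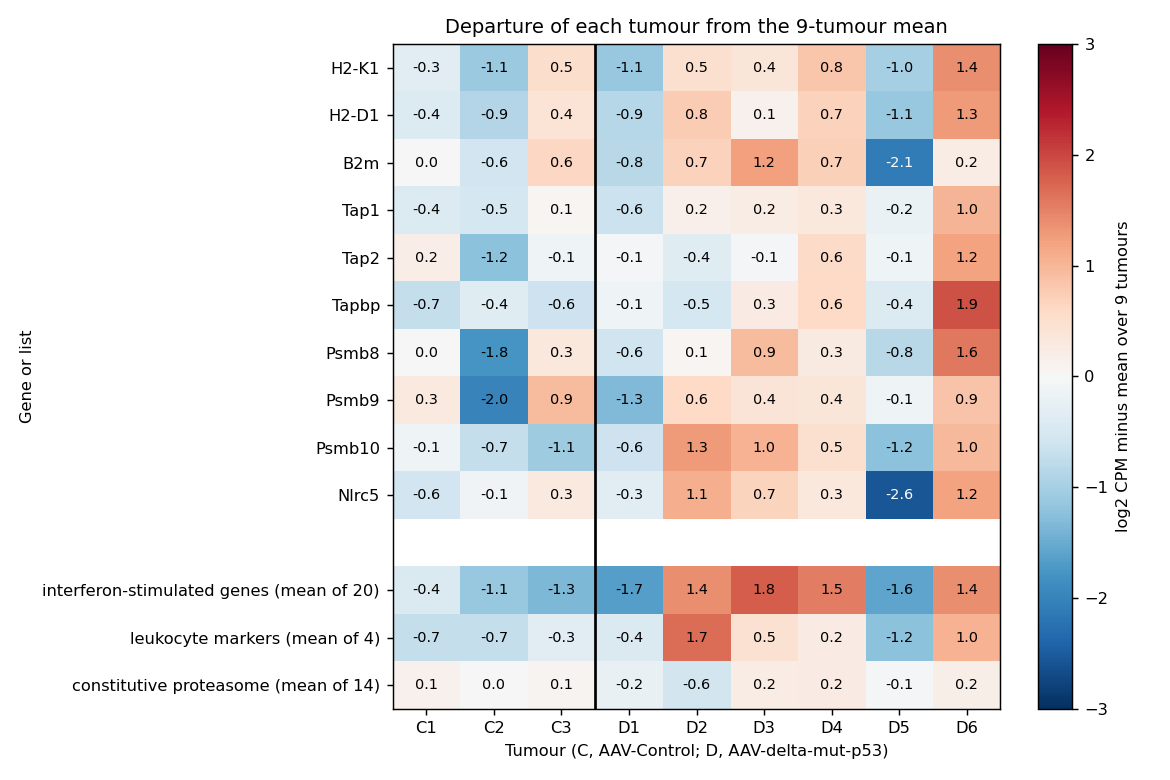
Log2 CPM of each class I gene minus its mean over the 9 tumours, by tumour (C, AAV-Control; D, AAV-delta-mut-p53), with the same for 3 list means below. AAV-delta-mut-p53 5 is lowest for Nlrc5 (-2.58) and B2m (-2.09), AAV-Control 2 for Psmb9 (-1.997), and AAV-delta-mut-p53 6 is highest for Tapbp (1.92).

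Between the groups as a whole, all 10 members had a positive log2 fold change, from 0.09 to 1.16 with a median of 0.57. Group means with their SD, over 3 controls and then 6 AAV-delta-mut-p53 tumours, were 389 ± 181 and 579 ± 336 CPM for H2-D1, 41.9 ± 9.49 and 60.1 ± 24.1 CPM for Tap1, and 21.6 ± 9.63 and 32.3 ± 15.4 CPM for Tap2. For Tapbp they were 77.4 ± 9.54 and 168 ± 133 CPM, and for Nlrc5 31.8 ± 9.56 and 46.3 ± 27.3 CPM. Those of the immunoproteasome genes were 20.04 ± 11.8 and 33.1 ± 21.8 CPM for Psmb8, 14.6 ± 10.9 and 15.6 ± 6.39 CPM for Psmb9, and 8.95 ± 3.04 and 20.1 ± 10.9 CPM for Psmb10. The SD was larger in the AAV-delta-mut-p53 group for all but Psmb9. Over all genes tested the share above 0 was 55.6% and the median 0.09. The members share regulators and tumours, so 10 positive signs are not 10 separate observations. At an unadjusted p under 0.05 edgeR had 0 members, beside 7.07% of all genes (3.82% higher and 3.26% lower). DESeq2 had 1 (Psmb10) and limma voom with sample weights 1 (Tapbp), and the share of all genes at that unadjusted p is not given for these tools. An FDR of 0.05 was passed by 0 members with either tool, where DESeq2 called 0.475% of genes and voom 0%. The groups overlapped for all 10 members, while they did not for 3.06% of all genes (1.47% with every AAV-delta-mut-p53 tumour higher, 1.59% with every one lower). The 95% intervals reached from -1.26 for the lower bound of Psmb9 to 2.44 for the upper bound of Psmb10, so each gene's interval held both a rise and a fall, and those of B2m and Psmb9 reached below -1. Without AAV-Control 3 the members' median was 0.87, without AAV-Control 2 it was 0.32, and without AAV-delta-mut-p53 6 it was 0.30. The last of these tumours also set the size of Tap1, at 0.30 without it, and of Tap2, at 0.30, while leaving out AAV-Control 2 gave 0.27 for Tap2 and leaving out AAV-Control 1 gave 0.88. For Psmb8 the value was 0.32 with AAV-Control 2 left out, 1.10 with AAV-Control 3 left out and 0.35 with AAV-delta-mut-p53 6 left out. Nlrc5 was 0.34 without AAV-Control 1 and 0.34 without AAV-delta-mut-p53 6, but 0.77 without AAV-Control 3 and 0.79 without AAV-delta-mut-p53 5.

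**Figure D4:**
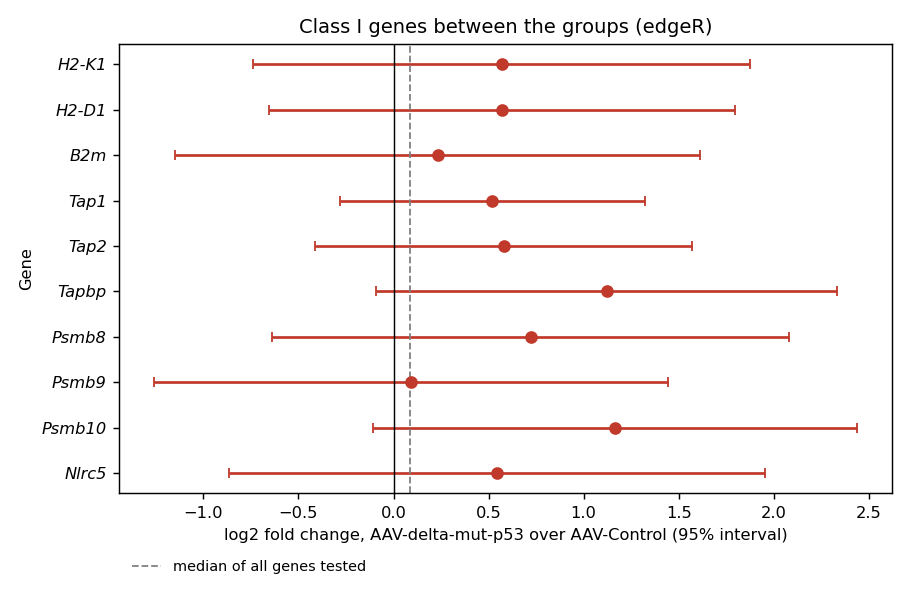
Log2 fold change of each class I gene, AAV-delta-mut-p53 over AAV-Control, with its 95% interval from edgeR, and the median of all genes tested as a dashed line (0.09). All 10 intervals include 0, from Psmb9 at 0.09 to Psmb10 at 1.16.

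The rest of the pathway was read from fixed lists. Of 33 other class I pathway genes 31 were tested, 19 of them higher and 12 lower. Their median log2 fold change was 0.20, with 0 past the FDR threshold. At an unadjusted p under 0.05 edgeR had 7.07% of all genes tested (3.82% higher). In this list the 1 such gene was Tapbpl, the tapasin-related editor of peptide cargo. Its mean was 10.6 ± 1.52 CPM over controls (SD, n = 3) and 23.6 ± 7.89 CPM over the AAV-delta-mut-p53 tumours (SD, n = 6), and every AAV-delta-mut-p53 tumour, at 15.7 CPM or more, lay above the highest control, at 12.3 CPM. Its log2 fold change was 1.15 (SE 0.36; FDR = 0.677 by edgeR). Groups that do not overlap in this direction were found for 1.47% of all genes.

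Chaperones that fold new heavy chains showed smaller differences. Calr (calreticulin), Canx (calnexin), Pdia3 (the disulfide isomerase of the loading complex) and Erap1 (the trimming peptidase) had log2 fold changes of -0.30, -0.20, -0.27 and -0.26. In AAV-delta-mut-p53 5, where B2m was lowest, Calr was 1076 CPM and Canx 1028 CPM, within the control ranges. The proteasome activator genes Psme1 and Psme2 had 0.69 (SE 0.48) and 0.56 (SE 0.45). Of 14 constitutive proteasome subunits, 7 were higher and 7 lower, and the median of their log2 fold changes was 0.00. None of these genes passed edgeR's FDR threshold.

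Nonclassical heavy chains fell into different patterns. H2-T23, which encodes Qa-1, a ligand of the NKG2A receptor, was 49.96 to 73.3 CPM in controls and 47.2 to 255 CPM in the other group, highest in AAV-delta-mut-p53 6, and H2-T22 reached 192 CPM there. H2-Q7, a gene for the Qa-2 antigen, went the other way in that tumour. It was 18.1, 10.04 and 62.9 CPM in the controls and 3.19, 63.0, 52.0, 42.9, 6.06 and 10.4 CPM in AAV-delta-mut-p53 1 to 6. H2-Q6, a close copy chosen after its values were seen, was 25.1, 10.5 and 86.4 CPM, and 7.33, 90.6, 65.4, 63.5, 3.81 and 7.38 CPM in the same order. H2-Q6 and H2-Q7 were thus low in AAV-delta-mut-p53 6, the tumour with the highest H2-K1 and H2-D1. H2-Q4 was 26.8 to 79.7 CPM in controls and 20.9 to 77.8 CPM in the other group, and was 21.9 CPM in number 6. Reads of H2-Q genes are shared among close copies, so these levels are uncertain.

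The transcripts of 2 other MHC genes differed sharply between tumours, and both were chosen after their values were seen. H2-Ea-ps, a class II alpha chain gene annotated as a pseudogene in the reference strain, reached 17.4 CPM in tumour AAV-delta-mut-p53 1, followed by 1.71 CPM for number 2, and was at most 0.436 CPM in the other 7 tumours. H2-K2, a class I gene beside H2-K1, was 13.1 CPM in AAV-delta-mut-p53 2 and 0.800 to 4.05 CPM elsewhere. MHC haplotypes differ between strains, and whether tumours differed in haplotype, and whether that moved the counts of H2-K1, H2-D1 or H2-Q genes, was not tested.

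Regulators of the class I genes were looked at next. Of 30, 28 were tested, 20 of them higher and 8 lower. The median of their log2 fold changes was 0.35, with 6 at an unadjusted p under 0.05 beside 3.82% of all genes in that direction, and 0 past the FDR threshold. Irf1 was 55.2 to 79.0 CPM in AAV-delta-mut-p53 numbers 2, 3, 4 and 6, the tumours that lay above every control for Nlrc5 and Psmb10, and 22.8 to 34.3 CPM in the other 5 tumours. Its log2 fold change was 0.70 (SE 0.42; FDR = 0.691 by edgeR). Irf2 was 68.7 CPM in AAV-delta-mut-p53 2 and 13.3 to 28.6 CPM elsewhere. Ciita, the class II counterpart of Nlrc5, was 3.84 to 8.12 CPM in controls and reached 26.1 and 18.9 CPM in numbers 2 and 6, while Rfx5, a subunit of the X-box factor that both transactivators use, was 16.4 to 30.4 CPM in all tumours. Ifng had 0 counts in 7 of the 9 tumours, which allows up to 3 counts in each, and 4 and 7 counts in AAV-Control 1 and AAV-delta-mut-p53 2. The summed CPM of 13 listed interferon gamma response genes was 134 to 271 in controls. It was 1056, 679, 733 and 1111 for AAV-delta-mut-p53 numbers 2, 3, 4 and 6, and 243 and 180 for numbers 1 and 5. Of these 13 genes 12 had a positive log2 fold change, beside 55.6% of all genes tested, and 0 passed the FDR threshold.

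The summed CPM of 20 interferon-stimulated genes was 281 to 484 in controls, 1480 to 2220 for AAV-delta-mut-p53 numbers 2, 3, 4 and 6, and only 265 and 266 for numbers 1 and 5. Class I levels moved with it only in part. AAV-Control 3 had 673 CPM of H2-K1 and 2306 CPM of B2m, more than the median of all tumours, with an interferon-stimulated sum of 328 CPM. AAV-delta-mut-p53 1 and 5 had nearly the same sum, yet Nlrc5 was 27.2 CPM in number 1 and 5.58 CPM in number 5, and B2m was 849 and 353 CPM.

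Leukocytes carry much class I RNA, so their markers are given beside these values. The sum of 4 leukocyte markers was 181 to 266 CPM in controls and 116 to 876 CPM in the other group, lowest in AAV-delta-mut-p53 5 and highest in number 2, and 0 of the 4 were at 0 counts in any tumour. Macrophage markers (7) summed to 452 to 683 CPM and 305 to 2640 CPM, with the same tumours at the ends. T cell markers (7) summed to 13.8 to 40.1 CPM and 9.92 to 46.2 CPM, and NK cell markers (5) to 1.82 to 3.62 CPM and 1.27 to 55.1 CPM. Cd8a and Cd8b1, the receptor chains that bind class I, were at most 2.301 CPM and 2.12 CPM in any tumour, with log2 fold changes of -0.39 and -0.56. B and plasma cell markers (6) summed to 23.3 to 38.02 CPM and 30.5 to 661 CPM. The part of leukocyte content in the class I values was not tested. The tumour with the most leukocyte RNA, AAV-delta-mut-p53 2, had the highest Psmb10 of the 9, while H2-K1 at 650 CPM, H2-D1 at 746 CPM, B2m at 2408 CPM and Nlrc5 at 71.5 CPM were exceeded in other tumours. The tumour with the least, number 5, had the lowest B2m, Nlrc5, H2-D1 and Psmb10.

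Neighbouring genes showed whether the departures in AAV-delta-mut-p53 5 and 6 extended along the chromosome. Protein-coding neighbours within 500 kb with a mean of at least 5 CPM were scaled by library size alone, H2 genes left out, and each tumour was set against the median of the other 8. In AAV-delta-mut-p53 5, B2m was at -2.39 on the log2 scale and its 11 neighbours had a median of -0.10, with 0 of them lower by 1 or more. Nlrc5 was at -2.67 and its 18 neighbours at a median of -0.10, with 2 lower by 1 or more, Cpne2 at -1.11 and Adgrg3 at -1.25. Around H2-D1 the 25 neighbours had a median of 0.39 with 1 lower by 1 or more, where H2-D1 was at -1.26. In AAV-delta-mut-p53 6, Tapbp was at 2.28 and H2-K1 at 1.37, while the 22 genes around them had a median of 0.21, and the 27 around Psmb9 to Tap2 one of 0.19. These last windows overlap and share most of their genes. The low or high RNA of these members was thus not matched by the median of their neighbours. Psmb10 in AAV-Control 3 was different, at -1.26 with a median of -0.94 over 24 neighbours, 10 of them lower by 1 or more.

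**Figure D5:**
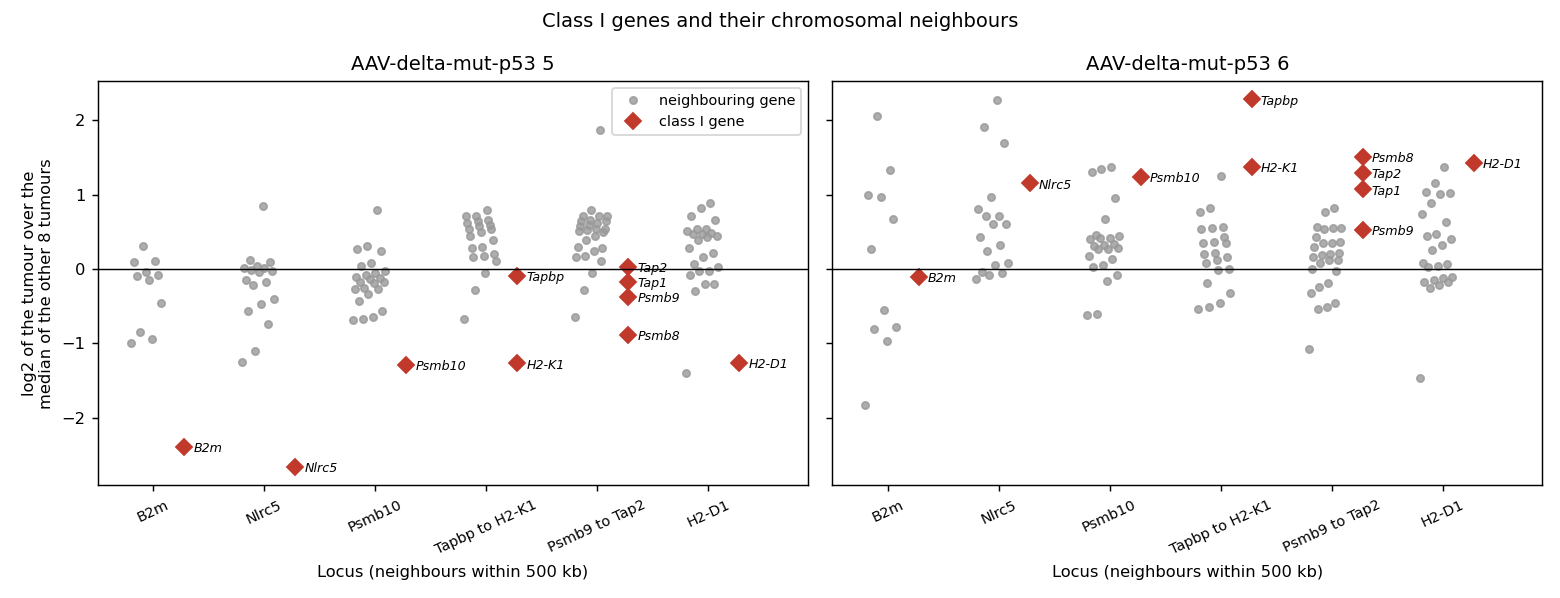
Log2 CPM (scaled by library size) in AAV-delta-mut-p53 5 (left) and 6 (right) relative to the median of the other 8 tumours, for class I genes (red diamonds) and protein-coding neighbours within 500 kb (grey points). B2m (-2.39) and Nlrc5 (-2.67) lie below all their neighbours in tumour 5, and Tapbp (2.28) above all of its neighbours in tumour 6.

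The genes whose pattern was most like the members were ranked by the root-mean-square distance between their centred log2 CPM and the members' mean profile over the 9 tumours, among 11577 genes. The 10 closest were Asah1 (0.272), Ntpcr (0.284), Gys1 (0.287), Sptlc2 (0.306), Sdf2l1 (0.320), Irf1 (0.324), Rpl36al (0.327), Vmp1 (0.328), Hscb (0.329) and Tor1aip1 (0.332). A gene with no variation would lie at 0.696. The members themselves lay between 0.236 for H2-D1 and 0.671 for Nlrc5. Those 10 genes were picked as the closest of 11577, so their distances cannot be set against those of the members. The closest pair of members was H2-K1 and H2-D1, at 0.195, and the farthest was Psmb9 and Nlrc5, at 1.17, although NLRC5 is known as an activator of Psmb9.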

How the data were processed

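Total RNA of 9 flash-frozen breast tumours was made into strand-specific libraries, per the labels' protocols. Raw counts of reads over genes, under Ensembl mouse identifiers, were deposited by the authors as 1 table and used as they stood. The submitters' processing notes name STAR 2.6.0b, DESeq2 and the build GRCm38 without saying what each was used for. Not given in the sources used here were the counting program, its strand setting and the annotation release. Columns were tied to tumours by sample title, and 0 were left over. Of 49585 identifiers, 49326 matched a symbol once the version was removed.

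Totals of 18581545 to 30953250 counts per tumour were scaled by TMM. Genes kept by filterByExpr (minimum count 10), 19606 in all, were tested by the quasi-likelihood test of edgeR 4.0.16 (2-sided, R 4.3.3), AAV-delta-mut-p53 over AAV-Control. The Benjamini-Hochberg false discovery rate (FDR) was taken over all 19606 genes at 0.05. Alternatives used DESeq2 1.42.0, limma 3.58.1, sva 3.50.0, other scaling and filters, each tumour left out, and the tumours that share a title number summed. Subunit ratios were compared by exact permutation over 84 assignments. On simulated counts with these means, spreads and library sizes, over 19606 genes, log2 changes of 1, 2, 3 and 4 were recovered by edgeR for 2, 5, 23 and 36 of 50 genes each, and 3 unchanged genes were called.

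Positions and exon lengths came from GENCODE mouse release 21 (GRCm38), and promoters from RefSeq (GRCm38.p6). The members, lists and naming rule were chosen with earlier results of these data known. Named genes were the members, 23 listed pathway genes, and the 10 genes closest to the members' mean profile. A result for 1 listed gene is not reported here. The neighbour comparison, the spaced motif, H2-Q6, H2-K2 and H2-Ea-ps were taken up after their values had been seen. The labels do not say that tumours came from separate animals, so p-values measure the spread between these samples.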

Additional observations from a re-analysis of the deposited data

Results flagged for a closer look

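Tapbp at 431 CPM in AAV-delta-mut-p53 6 stood far from the other 5 tumours of its group, whose highest value was 172 CPM. Among 15 sets of 6 values looked at, 10 genes and 5 ratios, it was the 1 set in which the gap to the nearest tumour exceeded Dixon's 95% limit of 0.625 of the range. The gap of Tapbp was taken on the CPM scale, and whether it passes the limit on the log2 scale was not tested. Chance flags about 1 in 20 such groups if their values are normally distributed.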

How the results depend on the processing

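Under 19 alternatives the count of members past FDR 0.05 was 0 in each, with a smallest member FDR of 0.41 (Psmb10 by edgeR without AAV-delta-mut-p53 5). The count over all genes was 0 in each except DESeq2, which called 100 genes. Members with an unadjusted p under 0.05 numbered 1 with DESeq2, 1 with voom, 1 with the tumours that share a title number summed, 1 with a surrogate variable, and 0 to 2 with 1 tumour left out. In the main edgeR fit they numbered 0, beside 7.07% of all genes. That share is not given for the alternatives, so their counts are not read as a result about the members. The members' median log2 fold change was 0.30 to 0.87 with 1 tumour left out and 0.34 to 0.61 otherwise. Of 190 values of single members 185 kept their sign. B2m turned to -0.21 with voom and ranged from -0.0432 to 0.57 with 1 tumour left out, and Psmb9 from -0.37 to 0.70. The difference in Psmb8/Psmb5 ranged from -0.0885 to 1.37 and that in Psmb9/Psmb6 from -0.53 to 0.85, each negative without AAV-Control 2. The cause was not tested. No paired analysis was possible because the titles share no replicate number between the groups. With 3 against 6 tumours and these spreads a log2 change of 1 was seldom recovered in simulated counts. Most differences of that size would therefore be missed.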
